A study of Mus musculus with 16 samples.

Results

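E2F transcription factors switch on and off the genes that a cell needs to copy its DNA and divide. The family described here has 10 members, E2f1 to E2f8 and the DNA-binding partners Tfdp1 and Tfdp2, out of 19938 genes measured. A member was taken where a probe set of the deposited table carried its symbol alone in the array annotation. All 10 were found, on 12 of the 21789 probe sets with a single symbol. E2f3 and Tfdp1 had 2 probe sets each, and the brighter one was used.

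In textbook terms, E2f1, E2f2 and E2f3 are the activators, which drive genes of the G1/S step once the retinoblastoma protein lets them go. E2f4 and E2f5 are repressors that bind pocket proteins in resting cells. E2f6 represses without pocket proteins, in complexes with Polycomb-type proteins. E2f7 and E2f8 are the atypical repressors, which bind DNA without a partner and are themselves made late in the G1/S step. Tfdp1 and Tfdp2 pair with E2f1 to E2f6. Mutations of the retinoblastoma pathway, which controls these factors, are common in malignant glioma.

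The study measured total RNA of mouse brain on 16 Affymetrix expression arrays, 4 in each of 4 groups. Normal brain, the control, was wild type for Pdgfb, Trp53 and Rbpj. The PDGF-p53 group holds tumours of p53 floxed mice that were given a retrovirus carrying both PDGF-B and Cre, so infected cells over-express PDGF and lose p53. PDGF-p53-RBPJ tumours were made with the same virus in mice whose p53 and RBPjk alleles were both floxed. RBPjk, encoded by Rbpj, is the DNA-binding factor of Notch signalling. p53-RBPJ tumours arose without virus, after Hes5::CreERT2 removed both floxed genes in Hes5+ cells, and they carry no added PDGF. All 3 tumour types share the loss of p53, were found by a Cre-inducible GFP reporter, were dissected from brains of mice with symptoms, and can hold host cells. No ages were used here. Nothing in the labels ties each array to its own mouse, and p-values therefore cover only the spread among these samples, part of which may be technical. The 3 comparisons with normal brain share the control arrays, and the 2 induction routes cannot be told apart from the presence of PDGF.

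Each value below is a log2 expression value, and a difference is one of mean log2 values, with its standard error from limma over 4 against 4 arrays. Where 3 values stand together, PDGF-p53 tumours come first, PDGF-p53-RBPJ tumours next and p53-RBPJ tumours last, each against normal brain unless stated otherwise. Array medians lay between 5.97 and 6.06, and arrays of a group correlated with r from 0.967 to 0.984, both over all 35556 probe sets. The targeted gene Rbpj read 7.76 to 8.21 in normal brain, 8.17 to 8.50 in PDGF-p53, 7.55 to 7.88 in PDGF-p53-RBPJ and 7.64 to 7.93 in p53-RBPJ tumours. Pdgfb read 5.69 to 6.20, 5.81 to 6.31, 5.88 to 6.19 and 5.23 to 5.77 in the same order, so the arrays labelled as over-expressing PDGF were not separated from normal brain by this probe set. All of them read above every p53-RBPJ array. The p53-RBPJ tumours differed by -0.50 from PDGF-p53 and by -0.49 from PDGF-p53-RBPJ tumours, without passing the test (adjusted p = 0.0693 and 0.0963, limma). Where these probes lie relative to the deleted exons or the viral insert is not known, and Trp53 was not analysed here. Neuron markers fell in all 3 tumour types (7 of 7 measured), with list means of 10.7 to 10.9 in control arrays and 7.30 to 9.13, 6.95 to 8.46 and 6.18 to 7.92 in the tumours. Oligodendrocyte precursor markers rose (7 of 7), from list means of 7.06 to 7.28 to 9.40 to 9.70, 9.37 to 9.55 and 8.93 to 9.55. Dividing-cell markers rose (5 of 5), from 5.10 to 5.61 to 8.88 to 9.56, 9.27 to 9.74 and 9.32 to 9.91. Oligodendrocyte markers fell (5 of 5 in each tumour type), from 8.33 to 9.75 to 6.06 to 8.59, 6.55 to 7.29 and 5.94 to 6.48. Astrocyte markers fell (5, 6 and 6 of 6), from 10.02 to 10.28 to 7.92 to 9.53, 8.03 to 8.54 and 7.37 to 7.94. Of 8 microglia and myeloid markers 6 fell in p53-RBPJ tumours and 0 in the other types. Ptprc, a marker of this list, rose in PDGF-p53 (0.82, adjusted p = 0.0315) and p53-RBPJ tumours (0.78, 0.0342, limma). Choroid plexus markers fell (3, 4 and 3 of 4). Of 6 endothelium markers 1, 1 and 2 fell and 0, 0 and 1 rose. Of 5 mural markers 1 fell in each tumour type, and 1, 2 and 1 rose. Cspg4, which is also on the oligodendrocyte precursor list, was among the mural markers that rose. The lowest value of the whole table was 1.2, so no marker could read 0, and closeness to background was not tested. The part of these shifts in cell makeup in the results below was not tested, and in bulk tissue fewer cells of a type and less RNA per cell cannot be told apart.

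Against normal brain the family did not move as a block. The atypical repressors E2f7 and E2f8 rose in all 3 tumour types and had the largest differences of the family, and Tfdp1 and E2f3 rose as well. E2f1 did not pass the test in any comparison, and Tfdp2 was lower. In PDGF-p53 tumours 4 of 10 members were higher and 1 lower at an adjusted p under 0.05, beside 13.6% and 17.6% of all genes. PDGF-p53-RBPJ tumours had 5 higher and 1 lower, beside 15.7% and 17.9%. In p53-RBPJ tumours 6 were higher and 0 lower, beside 16.4% and 20.4%, with Tfdp2 at a difference of -0.52 and an adjusted p of 0.0747. The called shares of 5, 6 and 6 of 10 thus lay above the 31.1%, 33.6% and 36.8% of all genes called in either direction. The median difference of the 10 members was 0.29, 0.49 and 0.52, against -0.04, -0.03 and -0.02 over all genes.

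**Figure D1:**
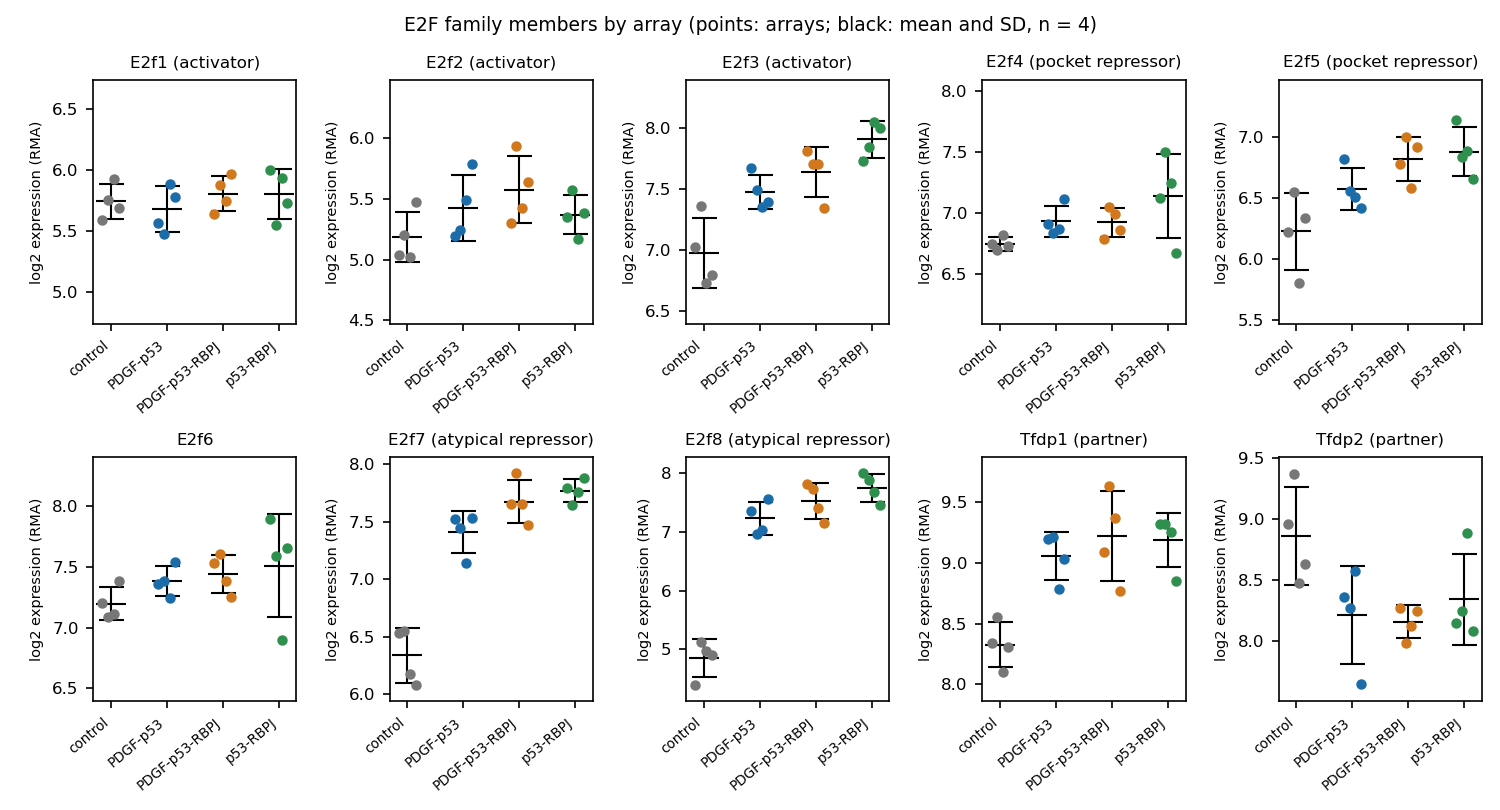
Log2 expression (RMA) of each E2F family member on every array, by group, with the group mean and SD in black (n = 4). The vertical axes differ in position between panels. E2f7, E2f8 and Tfdp1 have all tumour arrays above all control arrays, the groups of E2f1 overlap, and Tfdp2 is mostly lower in tumours.

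E2f8 had the largest differences of the family. Its control arrays read 4.40, 5.13, 4.97 and 4.91, and the PDGF-p53 arrays 7.35, 6.96, 7.03 and 7.57. The PDGF-p53-RBPJ arrays read 7.82, 7.74, 7.41 and 7.15, and the p53-RBPJ arrays 8.0, 7.88, 7.68 and 7.46. Every tumour array stood above every control array. The differences were 2.38 ± 0.19 (adjusted p = 7.2e-08), 2.68 ± 0.19 (1.37e-08) and 2.90 ± 0.19 (3.87e-09, limma). No fold is given, since the control mean of 4.85 lay under log2 5, the limit used for dim genes, and the background level is not known. The group mean was lowest in normal brain (4.85), followed by PDGF-p53 (7.23), then PDGF-p53-RBPJ (7.53), then p53-RBPJ tumours (7.76), but the arrays of neighbouring tumour types overlapped.

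E2f7, its close relative, moved the same way with smaller differences. Control arrays read 6.53, 6.55, 6.18 and 6.08, and the PDGF-p53 arrays 7.52, 7.44, 7.14 and 7.53. The other tumours read 7.65, 7.92, 7.65 and 7.47 (PDGF-p53-RBPJ) and 7.79, 7.64, 7.76 and 7.88 (p53-RBPJ). No tumour array overlapped the control arrays. E2f7 rose by 1.07 ± 0.14 (adjusted p = 1.05e-05), 1.34 ± 0.14 (8.23e-07) and 1.43 ± 0.14 (2.38e-07, limma). Its 95% confidence intervals, 0.78 to 1.36, 1.05 to 1.63 and 1.14 to 1.72, lay below those of E2f8, whose lowest bound was 1.98.

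Among the activators only E2f3 passed the test. E2f3, which has the broadest role of the 3 in driving S phase, read 7.02, 7.36, 6.73 and 6.79 in control arrays and 7.67, 7.49, 7.35 and 7.39 in PDGF-p53 tumours. Its PDGF-p53-RBPJ arrays read 7.81, 7.70, 7.70 and 7.34, and its p53-RBPJ arrays 7.73, 7.84, 8.05 and 8.0. Control replicate 2 overlapped the lowest arrays of both PDGF tumour types, while all p53-RBPJ arrays were above normal brain. The rises were 0.50 ± 0.15 (adjusted p = 0.0141), 0.66 ± 0.15 (0.0017) and 0.93 ± 0.15 (5.82e-05, limma). The first of these calls was lost with the mean of both probe sets (0.33, adjusted p = 0.082), without PDGF-p53 replicate 1 (0.44, 0.0519) and without control replicate 3 (0.42, 0.0541). The second probe set of E2f3 differed by 0.16, 0.31 and 0.45, with adjusted p of 0.535, 0.18 and 0.0411 (limma over every probe set).

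E2f1, the activator also known for driving cell death, overlapped in every comparison. Its arrays lay between 5.59 and 5.93 in normal brain, 5.48 and 5.89 in PDGF-p53, 5.64 and 5.97 in PDGF-p53-RBPJ, and 5.55 and 6.0 in p53-RBPJ tumours. The differences were -0.06, 0.06 and 0.06, with 95% intervals of -0.34 to 0.21, -0.21 to 0.34 and -0.22 to 0.34. The probe sets of E2f1 and E2f2 were dim, with means of 5.76 and 5.39 over 16 arrays, below every array's median, and whether they could show a change was not tested. E2f2 lay between 5.02 and 5.47 in normal brain and between 5.17 and 5.93 over all tumour arrays, and the groups overlapped. Its differences were 0.24, 0.39 and 0.19, with adjusted p of 0.298, 0.0744 and 0.411 (limma). The difference of 0.39 in PDGF-p53-RBPJ tumours passed the test after quantile normalization (0.46, adjusted p = 0.0249), without PDGF-p53-RBPJ replicate 1 (0.48, 0.0422) and without control replicate 4 (0.48, 0.0379).

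Of the pocket repressors, E2f5 rose in both tumour types that lack RBPjk. Control arrays of E2f5 read 6.22, 6.55, 5.80 and 6.34, and the PDGF-p53 arrays 6.82, 6.56, 6.51 and 6.42. Its PDGF-p53-RBPJ arrays read 6.78, 7.0, 6.58 and 6.92, and its p53-RBPJ arrays 7.14, 6.84, 6.89 and 6.66. The PDGF-p53 arrays overlapped normal brain, and the arrays of the other tumour types did not. The differences were 0.35 ± 0.16 (adjusted p = 0.106), 0.59 ± 0.16 (0.00646) and 0.65 ± 0.16 (0.00277, limma). That one value missed the threshold does not make it smaller than the others: the difference between PDGF-p53-RBPJ and PDGF-p53 tumours was 0.24 with an interval of -0.09 to 0.57. Without control replicate 2 the PDGF-p53 difference was 0.46 with an adjusted p of 0.0417.

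E2f4, the other pocket repressor, read 6.74, 6.69, 6.82 and 6.73 in normal brain and 6.91, 6.83, 6.87 and 7.11 in PDGF-p53 tumours. The PDGF-p53-RBPJ arrays read 6.78, 7.05, 6.99 and 6.86, and the p53-RBPJ arrays 7.12, 7.50, 7.24 and 6.67. All PDGF-p53 arrays stood above normal brain, and p53-RBPJ replicate 4 stood below it. The differences were 0.19, 0.18 and 0.39, and only the last passed the test (adjusted p = 0.373, 0.387 and 0.0392, limma). This call was lost under 10 of 25 other settings, among them without any 1 control array (adjusted p from 0.0514 to 0.0829) and without p53-RBPJ replicate 1, 2 or 3 (0.0636, 0.156 and 0.0929), the lowest difference being 0.27.

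E2f6, the Polycomb-type repressor, did not pass the test. Its arrays lay between 7.09 and 7.38 in normal brain, 7.24 and 7.54 in PDGF-p53, 7.25 and 7.60 in PDGF-p53-RBPJ, and 6.90 and 7.89 in p53-RBPJ tumours. The differences were 0.19, 0.25 and 0.31, with adjusted p of 0.456, 0.291 and 0.159 (limma). The value of 6.90 belonged to p53-RBPJ replicate 3, and without that array the difference was 0.52 with an adjusted p of 0.00437.

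The 2 partners moved in opposite directions. Tfdp1 read 8.34, 8.55, 8.10 and 8.31 in normal brain and 9.19, 9.21, 8.78 and 9.03 in PDGF-p53 tumours. Its PDGF-p53-RBPJ arrays read 9.09, 9.63, 9.37 and 8.77, and its p53-RBPJ arrays 9.32, 9.32, 9.25 and 8.85. Every tumour array was above every control array. The rises were 0.73 ± 0.17 (adjusted p = 0.00321), 0.89 ± 0.17 (0.00052) and 0.86 ± 0.17 (0.000594, limma). The second probe set of Tfdp1 gave 0.91, 1.06 and 1.12.

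Tfdp2 read 8.96, 9.37, 8.47 and 8.63 in normal brain and 8.36, 8.27, 8.57 and 7.64 in PDGF-p53 tumours. The PDGF-p53-RBPJ arrays read 8.27, 7.98, 8.12 and 8.24, and the p53-RBPJ arrays 8.14, 8.24, 8.88 and 8.08. Only the PDGF-p53-RBPJ arrays lay wholly below normal brain. The differences were -0.65 ± 0.22 (adjusted p = 0.0316), -0.70 ± 0.22 (0.019) and -0.52 ± 0.22 (0.0747, limma). Single arrays could undo these calls. The PDGF-p53 call was lost without PDGF-p53 replicate 2 (adjusted p = 0.0512) or 4 (-0.46, 0.123) and without control replicate 1 (0.0723) or 2 (-0.48, 0.122). It was also lost with all arrays of both groups kept: over every probe set (0.0525), with only these groups in the fit (0.0542) and after quantile normalization (-0.58, 0.0607, limma). The PDGF-p53-RBPJ call was lost without PDGF-p53-RBPJ replicate 2 (0.0544) or control replicate 2 (-0.53, 0.0778). The p53-RBPJ difference passed without p53-RBPJ replicate 3 (-0.70, 0.0157), control replicate 3 (-0.65, 0.0375) or PDGF-p53 replicate 4 (0.0452).

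**Figure D2:**
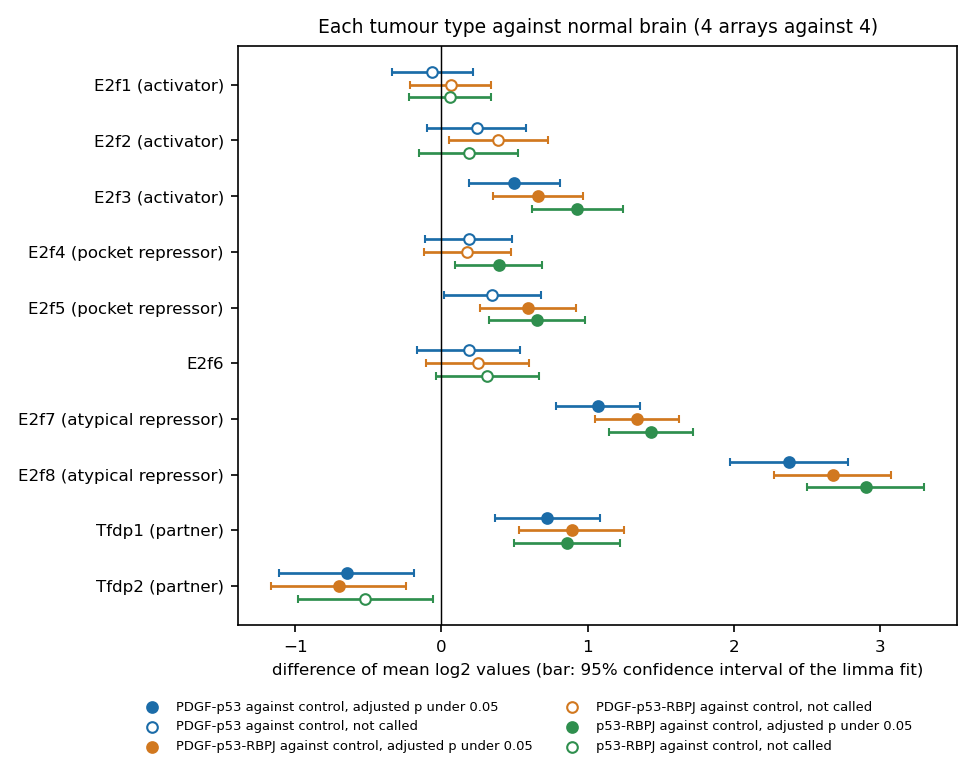
Difference of mean log2 values between each tumour type and normal brain for the 10 members, with the 95% confidence interval of the limma fit (4 against 4 arrays). Filled points passed an adjusted p of 0.05. E2f8 and E2f7 lie farthest to the right, E2f1 lies on 0 and Tfdp2 lies to the left.

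An exact two-sided permutation test of each single member was set beside the fit. With 4 against 4 arrays its smallest p is 0.0286, reached where groups do not overlap. Against normal brain 4, 5 and 5 members had groups that did not overlap, beside 30.0%, 34.5% and 34.4% of all genes. Adjusted over the 60 tests the lowest exact p was 0.107, so 0 of them passed. A pass would need many of the 60 tests at the smallest p at once, so this count says little about the limma calls. The PDGF-p53 count included E2f4 and left out E2f3 and Tfdp2, whose arrays overlapped normal brain although limma called them.

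By class, the atypical repressors stood farther from normal brain than the activators and the pocket repressors. Averaged per array over E2f1, E2f2 and E2f3, after subtraction of each gene's control mean, the activators stood at 0.23, 0.37 and 0.39 in the 3 tumour types, in the order used above, and control arrays ranged from -0.08 to 0.14. The pocket repressors E2f4 and E2f5 stood at 0.27, 0.39 and 0.52, with control arrays from -0.17 to 0.13. The p53-RBPJ arrays of this class spread from 0.18 to 0.68. E2f7 and E2f8 together stood at 1.72, 2.01 and 2.17, with tumour arrays from 1.49 to 2.30. Among the activators E2f3 had the largest difference in each tumour type, and the other two are the dim probe sets. The mean of the partners, 0.04, 0.09 and 0.17, joins the opposite moves of Tfdp1 and Tfdp2. The class means are descriptions, with no test.

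**Figure D3:**
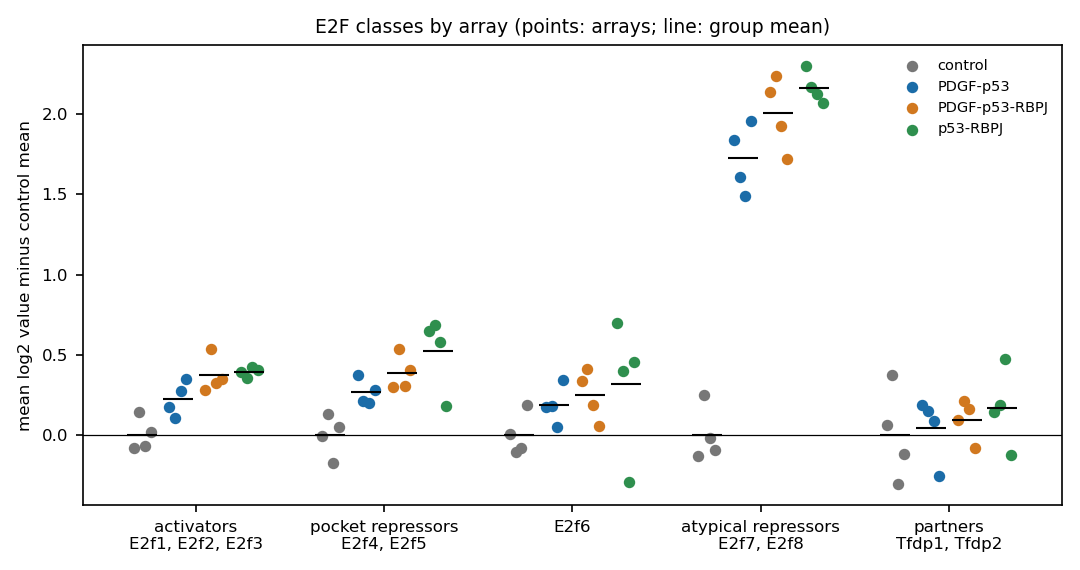
Mean log2 value minus the control mean for each E2F class, per array (points) and per group (line, n = 4). Only the atypical repressors E2f7 and E2f8 stand far above normal brain, between 1.49 and 2.30 on the tumour arrays.

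Between tumour types no member passed the test. Loss of RBPjk in PDGF tumours, PDGF-p53-RBPJ against PDGF-p53, gave 0 called members, beside 0.0201% of all genes (0.0150% higher and 0.00502% lower). It also gave 0 at an unadjusted p under 0.05 by limma and 0 by the exact permutation test, and no member's groups were apart, beside 3.17% of all genes. The 10 intervals reached from -0.52 to 0.70, with E2f8 at 0.30 (-0.10 to 0.70), E2f7 at 0.27 (-0.02 to 0.55) and Tfdp2 at -0.05 (-0.52 to 0.41).

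The comparison of p53-RBPJ with PDGF-p53-RBPJ tumours, which differ in PDGF and in the route of induction, also gave 0 members, beside 3.27% of all genes (0.637% higher and 2.63% lower), with 0 at an unadjusted p under 0.05 by limma and 0 by the exact permutation test. Groups were apart for 0 members, beside 9.69%. E2f3 had the largest difference, 0.27 (-0.04 to 0.58, adjusted p = 0.386, limma).

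p53-RBPJ and PDGF-p53 tumours differ in RBPjk, in PDGF and in the route of induction, which cannot be told apart here. In p53-RBPJ against PDGF-p53 tumours 0 members were called by limma, beside 5.54% of all genes (1.93% higher and 3.61% lower), and 3 had an unadjusted p under 0.05. These were E2f8 (0.53, 0.13 to 0.93, adjusted p = 0.122), E2f3 (0.43, 0.12 to 0.74, 0.0962) and E2f7 (0.36, 0.07 to 0.65, 0.142). The arrays of E2f3 and E2f7 did not overlap (exact p = 0.0286 each, 0.107 adjusted over 60), which makes 2 of 10 members, beside 9.75% of all genes. Centring each array on housekeeping genes, which raised the median of all genes here from 0.01 to 0.10, brought E2f3 (0.52, adjusted p = 0.044) and E2f8 (0.62, 0.0451) past the threshold. That reference was not stable, since Rps18, a gene of the housekeeping list, itself differed here by 0.51 (adjusted p = 0.028, limma).

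**Figure D4:**
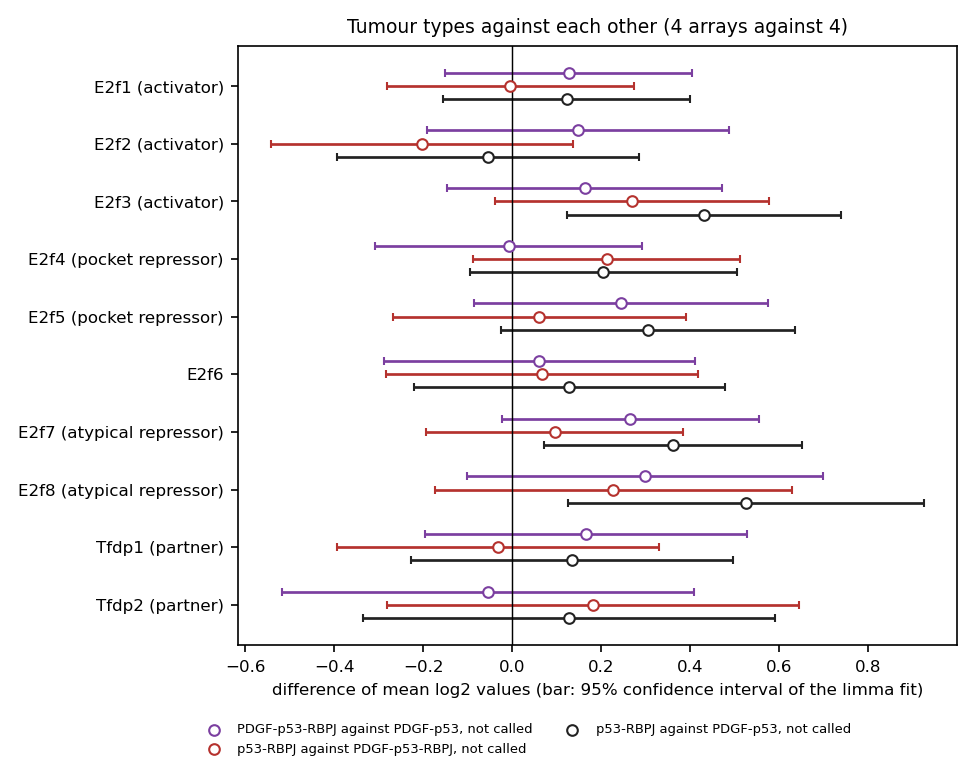
Difference of mean log2 values between tumour types for the 10 members, with the 95% confidence interval of the limma fit (4 against 4 arrays). No member passed an adjusted p of 0.05. The intervals of E2f3, E2f7 and E2f8 for p53-RBPJ against PDGF-p53 lie above 0.

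The promoters of members that rose together were read from RefSeq, build GRCm38.p6, as 250 bases before to 50 after each gene's start. E2F words (TTTCCCGC, TTTCGCGC, TTTGCCGC and TTTGGCGC, both strands) and words of the cell cycle homology region, a site of the MuvB complex (TTCGAA and TTTGAA, both strands), were searched. Of the 8 members with an entry (all but E2f4 and E2f5), E2f2, E2f3, E2f7 and Tfdp1 hold an E2F word (4 of 8, or 50%), beside 2.26% of all 32851 promoters and 3.48% of 15614 genes on the array. E2f2, E2f3 and E2f8 hold a word of the homology region (3 of 8, or 37.5%), beside 19.2% of all promoters. The stretches that hold these words are shown for the 4 members that rose in all tumour types, with the word in capitals.
E2f8, homology region 20 bases before the start, chr7:48881597-48881642, minus strand: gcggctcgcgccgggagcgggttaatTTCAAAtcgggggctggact
E2f7, E2F word 198 bases before the start, chr10:110745215-110745274, plus strand: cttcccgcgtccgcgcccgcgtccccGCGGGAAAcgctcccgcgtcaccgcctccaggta
E2f3, E2F word 11 bases before the start, chr13:29986064-29986100, minus strand: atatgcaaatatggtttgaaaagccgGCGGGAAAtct
E2f3, homology region 23 bases before the same start, chr13:29986064-29986112, minus strand: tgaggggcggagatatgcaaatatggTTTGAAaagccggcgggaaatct
Tfdp1, E2F word 96 bases before one start and 43 before the other, chr8:13338682-13338741, plus strand: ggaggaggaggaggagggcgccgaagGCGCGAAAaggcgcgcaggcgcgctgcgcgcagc
The atypical repressors thus differ in these windows: E2f7 holds an E2F word and no homology-region word, and E2f8 the reverse. E2f1, E2f6 and Tfdp2 hold neither. A match is a run of letters and not a measured site, and no match says only that these letters are not in this window.

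The genes around the family were counted list by list, to be read against the 13.6%, 15.7% and 16.4% of all genes that were higher and the 17.6%, 17.9% and 20.4% that were lower than normal brain. The pocket proteins hold E2F factors in check: Rbl1 (p107) rose in all 3 tumour types, and Rb1 and Rbl2 (p130) did not pass the test. Rbl1 read 5.02 to 5.54 in normal brain and 7.44 to 8.20 over all tumour arrays, with no overlap. Its differences were 2.27, 2.37 and 2.72 (adjusted p = 2.38e-09, 9.26e-10 and 1.8e-10, limma). Rb1 differed by 0.01, -0.05 and 0.07, and Rbl2 by 0.28, 0.16 and 0.01. Rbl1 is itself a known E2F target.

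MuvB is a core of Lin proteins and Rbbp4 that represses with pocket proteins in resting cells and activates with Mybl2 and Foxm1 in dividing ones. In each tumour type 4 of 7 genes of this list rose and 0 fell, with list medians of 0.49, 0.65 and 0.79. Foxm1, the activator of the G2/M step, rose by 2.97, 3.17 and 3.09, and Mybl2, its forerunner in S phase, by 0.79, 1.10 and 0.95. Of the core, Lin9 rose by 1.57, 1.80 and 1.98 and Rbbp4 by 0.49, 0.65 and 0.79. Lin37, Lin52 and Lin54 did not pass the test, at -0.19, -0.32 and 0.26 in PDGF-p53, -0.21, -0.25 and 0.28 in PDGF-p53-RBPJ and -0.04, -0.21 and 0.31 in p53-RBPJ tumours. For Rbbp4 the call against normal brain no longer held, in PDGF-p53 tumours, without PDGF-p53 replicate 2 (0.41, adjusted p = 0.0714) and without control replicates 1 (0.38, 0.0814) or 3 (0.46, 0.0545).

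Known E2F targets of the G1/S step rose almost without exception. In each tumour type 40 of 41 measured genes were higher and 0 lower, with medians of 1.68, 1.80 and 1.92. In PDGF-p53 tumours the calls of Slbp and Fen1 were lost under 9 and 2 of 25 other settings. Slbp in p53-RBPJ and Ung in PDGF-p53-RBPJ tumours were each lost under 1. The largest rises were those of Ccna2, the S phase cyclin (3.44, 3.63 and 3.70), and Rrm2, a ribonucleotide reductase subunit (3.37, 3.82 and 3.11). Next came Rrm1, the other subunit, in PDGF-p53 tumours (2.49), Hells, a chromatin remodeller, in PDGF-p53-RBPJ tumours (2.65) and Prim1, a primase subunit, in p53-RBPJ tumours (2.87). Ccne1, the G1/S cyclin, was the exception in all 3, at 0.09, 0.19 and 0.06 (adjusted p = 0.718, 0.408 and 0.812, limma). The list mean was 6.20 to 6.25 on control arrays and 7.60 to 8.31 on tumour arrays, with PDGF-p53 replicate 3 the lowest. An E2F word stood in the promoters of 16 of 35 of these genes (45.7%).

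The G2/M genes that MuvB controls rose in full, 15 of 15 in each tumour type, with medians of 3.50, 3.65 and 3.61. Top2a, the topoisomerase that untangles chromosomes, rose by 4.80, 5.03 and 5.24, and Bub1, a spindle checkpoint kinase, by 4.92, 5.03 and 5.05. Mki67 rose by 4.07 in PDGF-p53, Kif11, a spindle motor, by 4.37 in PDGF-p53-RBPJ and Cenpf, a kinetochore protein, by 4.52 in p53-RBPJ tumours. This list holds all 5 dividing-cell markers given above, so it is not a separate measure of dividing cells. A homology-region word stood in 12 of 15 of these promoters (80%) and an E2F word in 1 (6.67%).

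**Figure D5:**
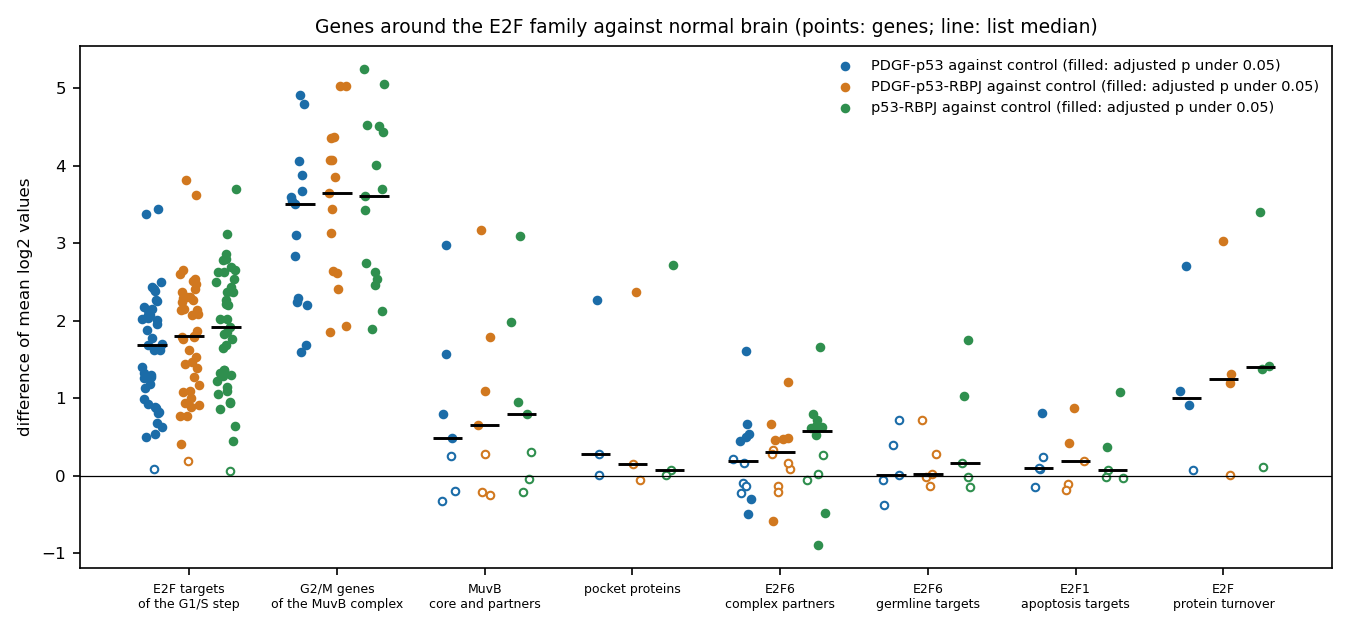
Difference of mean log2 values against normal brain for the genes of 8 lists around the E2F family (points, filled at an adjusted p under 0.05) and the list median (line). G1/S targets and G2/M genes lie almost wholly above 0, while the E2F6 and E2F1 lists spread around it.

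Between tumour types few genes of these lists were called. PDGF-p53-RBPJ against PDGF-p53 tumours had 0 of 41 G1/S targets and 0 of 15 G2/M genes called. Of those, 39 and 15 had a value above 0, with medians of 0.14 and 0.29, beside 0.02 over all genes. These genes were read on the same arrays, so the counts are not separate observations. The list means overlapped: G1/S targets stood at 7.86 to 8.14 in PDGF-p53-RBPJ and 7.60 to 8.10 in PDGF-p53 arrays. G2/M genes stood at 8.77 to 9.32 and 8.32 to 9.09. In p53-RBPJ against PDGF-p53 tumours 4 of 41 G1/S targets were higher, beside 1.93% of all genes. They were Dtl (0.65, adjusted p = 0.0217), Pola1 (0.60, 0.0336), Orc1 (0.48, 0.0333) and Brca1 (0.48, 0.0438, limma). Leaving out single arrays changed that count to between 0 and 10: it was 0 without PDGF-p53 replicates 2 or 3 or p53-RBPJ replicate 3, 2 without PDGF-p53 replicate 4 or p53-RBPJ replicates 1 or 2, and 10 without PDGF-p53 replicate 1. With all arrays of both groups kept, the count was 1 with weighted arrays, over every probe set and with only these groups in the fit. The calls of Brca1, Pola1, Orc1 and Dtl were lost under 15, 10, 8 and 3 of 25 other settings. Among the G2/M genes only Kif11 was higher there (0.96, adjusted p = 0.016), a call lost without PDGF-p53 replicates 2 (0.83, 0.061) or 3 (0.82, 0.0533) and with only these groups in the fit (0.96, 0.0637). Dnmt1, the maintenance methyltransferase, was lower in p53-RBPJ than in PDGF-p53-RBPJ tumours (-0.49, adjusted p = 0.0463, limma), a call lost under 17 of 25 other settings, with the value between -0.51 and -0.39.

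E2F proteins are removed through ubiquitin ligases. Fbxo5, an inhibitor of the anaphase-promoting complex and an E2F target, rose by 2.71, 3.02 and 3.40. Skp2, an F-box protein, rose by 1.09, 1.2 and 1.38, and Ccnf, the F-box protein cyclin F, by 0.91, 1.31 and 1.42. Fzr1, an activator of the anaphase-promoting complex, did not pass the test (0.08, 0.01 and 0.12), which makes 3 of 4 higher and 0 lower in each tumour type. Fbxo5 was also higher in p53-RBPJ than in PDGF-p53 tumours (0.70, adjusted p = 0.0132), a call lost without PDGF-p53 replicate 2 (0.59, 0.0511) and with only these groups in the fit (0.70, 0.0958).

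E2f6 itself did not pass the test, yet part of its complex did. Of 12 partners 5, 5 and 7 were higher and 2, 1 and 2 lower, with medians of 0.19, 0.30 and 0.57. The lower counts are near the share of all genes that were lower. Hdac1, a histone deacetylase, rose by 1.61, 1.21 and 1.66, and Cbx3, a heterochromatin protein, by 0.67, 0.66 and 0.72. Hdac2 rose by 0.54, 0.49 and 0.63, and Rnf2, a Polycomb ubiquitin ligase, by 0.50, 0.46 and 0.79. Wdr5 rose by 0.44, 0.47 and 0.62. Yaf2, a Polycomb cofactor, fell in all 3 (-0.50, -0.58 and -0.89). Mga, the Max partner of the complex, stood at 0.16 and 0.28 in the PDGF tumour types, where it did not pass the test. In p53-RBPJ tumours Mga rose by 0.64 (adjusted p = 0.00159, limma). Rybp, a relative of Yaf2, stood at -0.22 and -0.21 in the PDGF tumour types. It fell in p53-RBPJ tumours (-0.49, adjusted p = 0.0445, limma), a call lost under 11 of 25 other settings. Pcgf6, the Polycomb ring-finger protein of the E2F6 complex, differed by -0.30 (adjusted p = 0.0482), 0.17 (0.282) and 0.53 (0.000923, limma) from normal brain, the first of these calls lost under 18 of 25 other settings. L3mbtl2 (-0.09, 0.09 and -0.05), Max (0.22, 0.33 and 0.27) and Ring1 (-0.13, -0.13 and 0.02) did not pass the test in any tumour type. Pcgf6 was higher in p53-RBPJ than in PDGF-p53 tumours (0.83, adjusted p = 0.00059, limma), and this call held under all 25.

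Of 5 germline genes known to be silenced by E2F6, Stag3 and Smc1b, both meiotic cohesin subunits, rose in p53-RBPJ tumours and 0 rose in the other types. Stag3 read 5.41, 4.64, 5.54 and 5.43 in normal brain and 7.58, 6.40, 7.65 and 6.42 in p53-RBPJ tumours, a difference of 1.75 (adjusted p = 5.82e-05, limma). Smc1b read 4.53, 4.23, 4.42 and 4.43 in normal brain and 5.08, 5.37, 5.25 and 6.0 in p53-RBPJ tumours, a difference of 1.02 (0.000631). The control mean of Smc1b, 4.40, lay under log2 5, the limit used for dim genes, and its distance from background was not tested. Neither gene overlapped normal brain. In PDGF-p53 and PDGF-p53-RBPJ tumours Stag3 differed by 0.72 in both, with adjusted p of 0.0577 and 0.0526, and each passed under 9 of 25 other settings. Stag3 was higher in p53-RBPJ than in PDGF-p53 (1.04, adjusted p = 0.035) and PDGF-p53-RBPJ tumours (1.03, 0.0496), calls lost under 7 and 15 of 25 other settings. Slc25a31 did not pass the test (-0.37, -0.13 and -0.14), nor did Tuba3a (0.01, -0.02 and -0.02) and Tuba3b (-0.05, 0.03 and 0.16), near-identical tubulin copies whose signals are uncertain. Smc1b differed by 0.39 and 0.29 in the PDGF tumour types (adjusted p = 0.171 and 0.33, limma). Between tumour types Smc1b did not pass the test, at 0.74 for p53-RBPJ against PDGF-p53-RBPJ (adjusted p = 0.0596) and 0.63 against PDGF-p53 tumours (0.0831, limma).

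The genes nearest to each member were found by the root mean square distance between log2 values over 16 arrays, each minus its control mean. Nearest to E2f8 were Bub1b (0.23), Clspn (0.25) and Hells (0.26). Nearest to E2f7 were Txnrd1 (0.16), Snhg5 (0.17) and Ccnf (0.17). E2f3 lay nearest to Gtpbp4, Rcbtb2 and Tdp2, each at 0.14. For E2f5 these were Fxr1, Rp2 and Larp4, for E2f4 Prmt7, Terf2 and Xab2, and for E2f6 Hacl1, Myh15 and Max, a partner in its complex. Tfdp1 lay nearest to Bach1, Pde3b and Ranbp1, and Tfdp2 to Atp11b, Terf2ip and Zfp799, all 3 lower in every tumour type by 0.51 to 0.71. E2f1 lay nearest to Olfr1048, Bco1 and Ppp4r3c-ps, which hardly moved, and E2f2 to Ifrd2, Atpsckmt and Gpaa1. Of these, Bub1b, Hells and Ccnf also stand in the G2/M, G1/S and turnover lists above.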

How the data were processed

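Total RNA of 16 mouse brain samples was measured on Affymetrix arrays. The authors deposited log2 expression values, for which the submitters' processing notes name RMA and oligo. Their versions and the annotation build: not given in the sources used here. RMA equalises array distributions, so a change in total RNA per cell is not seen. Of 35556 probe sets 21789 carry 1 symbol, 1621 several and 12146 none here; 21698 symbols matched RefSeq (GRCm38.p6). Genes with several probe sets (999) kept the brightest, which left 19938. Groups came from the sample titles. One limma 3.58.1 fit over all arrays (lmFit, eBayes, R 4.3.3) gave every comparison, with Benjamini-Hochberg adjustment over all genes and calls at an adjusted p under 0.05; the fit was tested on simulated data. The number of arrays limits the precision (median SE of a difference 0.153). Exact permutation tests ran in Python 3.11.15. Alternatives covered probe sets, a minimum log2 value of 5, the arrays fitted, replicate numbers, normalization, variance model and each array left out. Members and lists were chosen with earlier results of these data known. Named are all members and all pocket protein, MuvB and E2F6 partner genes. Of other lists, the 3 largest called rises and falls are named, and uncalled genes where 5 or fewer. The 3 genes nearest each member are named too.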

Additional observations from a re-analysis of the deposited data

Results flagged for a closer look

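Tfdp1 read 8.85 in p53-RBPJ replicate 4, below the other 3 arrays of that group, which read 9.25 to 9.32. The gap to the nearest array was 0.845 of the group's range, above the 95% critical value of Dixon's test for 4 values. Chance gives such a gap in about 1 of 20 sets, and 40 sets of 4 arrays were tested (10 members in 4 groups), so a single one is no more than chance gives. The array still stood above all control arrays of Tfdp1.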

How the results depend on the processing

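Of 17 calls of members in 6 comparisons, 13 held under all 25 other settings and 4 were lost under at least 1 (E2f3 in PDGF-p53, E2f4 in p53-RBPJ, Tfdp2 in PDGF-p53 and PDGF-p53-RBPJ tumours, all against normal brain). No difference of a member that was called changed sign. With arrays left out in turn, the called members ranged from 4 to 5, 5 to 7 and 5 to 7 of 10 in the 3 comparisons with normal brain, in the report's order, and stayed at 0 between tumour types. Centring on 11 housekeeping genes gave 2 called members in p53-RBPJ against PDGF-p53 tumours (E2f3 and E2f8), against 0; the cause was not tested. That centring moved the median of all genes in PDGF-p53 and PDGF-p53-RBPJ tumours against normal brain to -0.14 in both. The housekeeping genes themselves differed from normal brain, in PDGF-p53 tumours from -1.14 (Hprt) to 1.21 (Gusb). In each tumour type, replicate 3 had the highest neuron markers of its group (list means of 9.13, 8.46 and 7.92). All 17 calls held when this array was dropped from PDGF-p53 tumours, and the same was true of the PDGF-p53-RBPJ group. Dropping it from p53-RBPJ tumours lost the E2f4 call against normal brain (0.36, adjusted p = 0.0929, limma). That removal also brought E2f6 (0.52, 0.00437) and Tfdp2 (-0.70, 0.0157) past the threshold there.

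The replicate numbers were not taken as pairs: of 24 pairs of same-numbered arrays 7 had deviations that correlated with r over 0.1, and r ran from -0.12 to 0.18. Among these 7 were all pairs of replicate 3 between tumour types (0.18, 0.17 and 0.16), and what those arrays share was not tested. A replicate block gave 18 called members, 17 of them shared with the fit without it, and added E2f2 in PDGF-p53-RBPJ tumours (0.39, adjusted p = 0.0452, limma). Genes called in PDGF-p53-RBPJ against PDGF-p53 tumours numbered 2 to 7 over the settings that moved the count of 4. In p53-RBPJ against PDGF-p53-RBPJ tumours they numbered 176 to 1197, against 651, and in p53-RBPJ against PDGF-p53 tumours 289 to 727, against 1105. The number of arrays, 4 a group, limits the precision.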

Other observations

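E2F1 is known for driving apoptosis genes when unchecked. Of 5 such genes measured, Apaf1, the core of the apoptosome, rose in all 3 tumour types, by 0.81, 0.87 and 1.08 (adjusted p = 6.61e-05, 2.82e-05 and 1.92e-06, limma). Bcl2l11, which encodes Bim, rose in PDGF-p53-RBPJ (0.43, adjusted p = 0.0238) and p53-RBPJ tumours (0.37, 0.0466), calls lost under 4 and 14 of 25 other settings. Trp73, Bbc3 and Pmaip1 did not pass the test, with values between -0.19 and 0.19. That makes 1, 2 and 2 of 5 higher and 0 lower, with a list median of 0.10, 0.19 and 0.07. Of all genes 13.6%, 15.7% and 16.4% were higher, and 31.1%, 33.6% and 36.8% were called in either direction. With 5 genes, whether these counts exceed those shares was not tested.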
